A study of Mus musculus with 6 samples.

Results

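The genes described here are 43 listed components of DNA replication and S phase, compared in sorted CD44loCD8+ T cells between sanroque and wild-type mice. They were chosen by name, and each was read from the probe set with exactly 1 gene symbol and the highest mean over the arrays. All 43 were measured, among 19938 genes in all. Sanroque mice (Roquinsan/san) are homozygous for a point mutation of Roquin, an RNA-binding repressor encoded by Rc3h1, and every cell of the animal carries it. Wild-type mice (Roquin+/+) were the controls. Both groups were on the C57BL/6 background and 10 weeks old, with 3 biological replicates per genotype. The cells were taken from spleen and lymph nodes by flow cytometry, and each sample was hybridised to 1 Affymetrix array.

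DNA is copied once in each cell cycle, in S phase. In G1 the origin recognition complex loads the MCM helicase onto DNA with the help of Cdc6 and Cdt1, and at the start of S phase Cdc45 and the GINS complex switch that helicase on. Polymerase alpha and its primase begin each strand, polymerases epsilon and delta extend it, and the Pcna clamp, its RFC loader, the nuclease Fen1 and the ligase Lig1 complete it. Ribonucleotide reductase, thymidylate synthase and thymidine kinase supply the nucleotides, and E2F transcription factors switch many of these genes on at the border of G1 and S phase. CD8+ T cells with low CD44, an adhesion receptor raised after activation, are mostly resting cells, and resting T cells keep many of these genes low.

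Among the 6 arrays, 2 stood apart. Sanroque replicate 1 read 11.20 for Xist (log2 intensity), against 4.02 to 4.17 in the other 5 arrays, and 3.92 for the Y-linked gene Uty, against 8.57 to 9.06. The labels do not give the sex of the mice. Wild type replicate 2 held more signal of B cell, plasma cell and myeloid markers than the other wild-type arrays. Results are therefore also given without both arrays. The mutated gene Rc3h1 averaged 10.15 ± 0.16 in sanroque cells and 10.00 ± 0.10 in wild-type cells (log2 intensity, SD, n = 3 each). A point mutation need not alter the amount of its own transcript, so the level is no check of the genotype labels. Cd8a, a coreceptor chain that marks the sorted cells, averaged 13.00 ± 0.02 in sanroque cells and 13.02 ± 0.03 in wild-type cells (log2 intensity, SD, n = 3 each). Cd44, the other sort marker, read 7.34, 7.70 and 7.90 in the sanroque arrays, against 5.98, 6.43 and 6.34 in the wild-type arrays (log2 intensity). It rose by 1.40 ± 0.17 SE on the log2 scale without overlap (limma adjusted p = 0.00669), although the cells of both genotypes were sorted as low in CD44. The part of this difference in the results that follow was not tested.

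Part of the replication machinery rose in sanroque cells. Of the 43 genes, 12 were higher and 0 were lower at an adjusted p below 0.05, and 31 did not pass (limma, two-sided, Benjamini-Hochberg over all 19938 genes). At an unadjusted limma p below 0.05, 18 were higher and 6 lower. Of all genes tested, 3.26% were called higher, 2.51% lower and 5.77% in either direction, and 27.9% of the replication genes were called higher. Those that rose were Rrm2, Rrm1, E2f1, E2f2, E2f8, Mcm2, Mcm4, Mcm10, Pola1, Lig1, Clspn and Chaf1a. Most rises were small: 7 of the 12 reached 1.5-fold and 1, Rrm2, reached 2-fold. The median log2 fold (sanroque minus wild type) was 0.24 over the 43 genes and -0.03 over all genes. All 3 sanroque arrays lay above all 3 wild-type arrays in 20 replication genes, or 46.5%, against 9.46% of all genes. They lay below them in 5, or 11.6%, against 13.2% of all genes. The count of 12 depended on single arrays. It was 7, 1 and 7 without sanroque replicate 1, 2 or 3, when 2.28%, 1.69% and 2.94% of all genes were called higher. It was 1, 3 and 6 without wild type replicate 1, 2 or 3, when 0.983%, 2% and 2.14% of all genes were. The single gene left without sanroque replicate 2 or without wild type replicate 1, Rrm2, is 2.33% of the 43, near the 1.69% of all genes in the first case and above 0.983% in the other. Without both arrays that stood apart, 2 genes passed, Rrm1 and Rrm2, when 1.64% of all genes were called higher, and the median log2 fold was still 0.24.

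**Figure D1:**
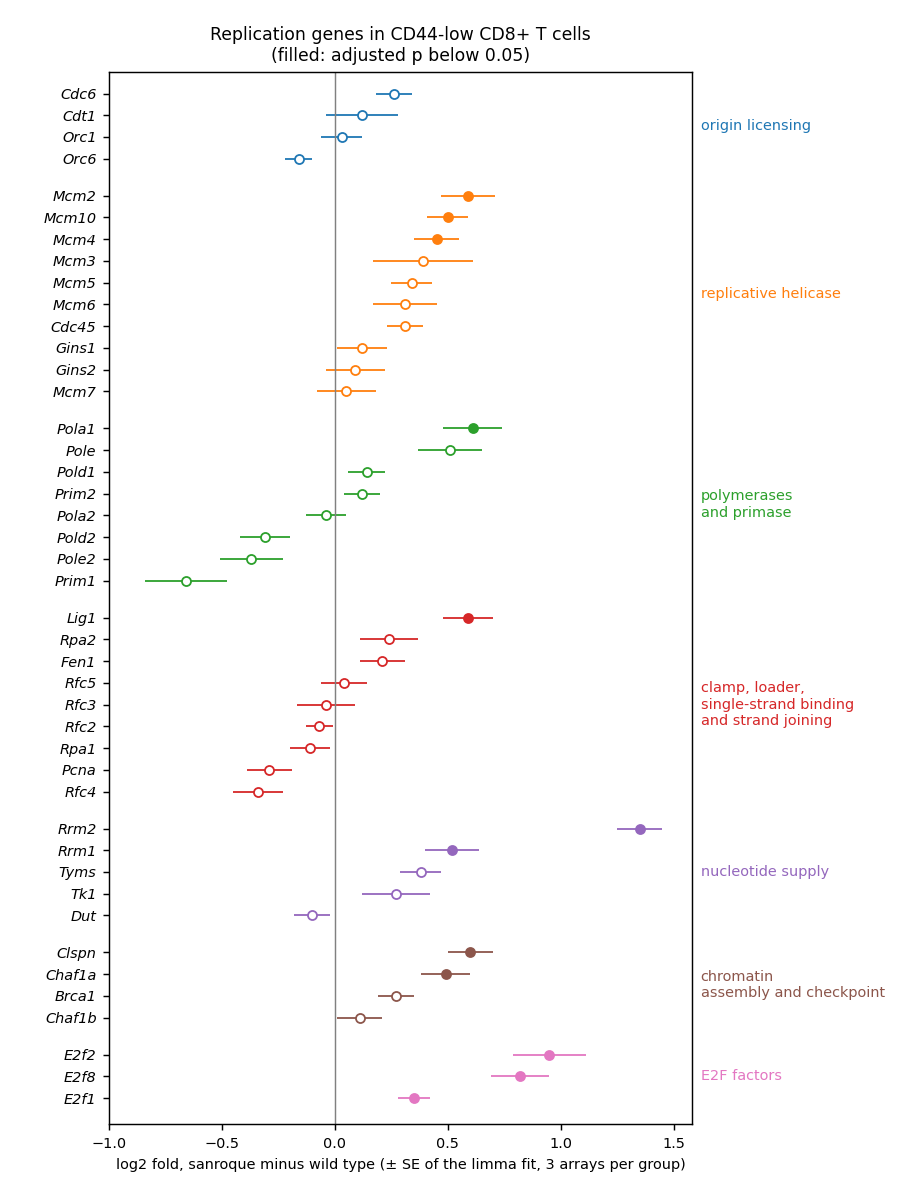
Log2 fold (sanroque minus wild type, x axis) of the 43 replication genes, ordered by role, with the standard error of the limma fit (3 arrays per group). Filled points passed at an adjusted p below 0.05: all 12 lie above 0, Rrm2 farthest at 1.35, and Prim1 has the lowest fold at -0.66.

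Nucleotide supply held the largest change. Rrm2 encodes the small subunit of ribonucleotide reductase, which makes deoxyribonucleotides and is limiting outside S phase. It read 7.59, 7.80 and 7.63 in the sanroque arrays, against 6.43, 6.14 and 6.42 in the wild-type arrays (log2 intensity). The groups lay more than 1 log2 unit apart and did not overlap. Rrm2 rose 2.54-fold (log2 fold 1.35 ± 0.10 SE, limma adjusted p = 0.00203), and it was the only one of the 43 genes that passed whichever single array was left out, with log2 folds of 1.25 to 1.40. Rrm1, the large subunit of the same enzyme, read 9.01, 9.25 and 9.27 in the sanroque arrays, against 8.50, 8.86 and 8.63 in the wild-type arrays (log2 intensity). It rose 1.43-fold (log2 fold 0.52 ± 0.12 SE, limma adjusted p = 0.0480), with every sanroque array above every wild-type array. Leaving out any single array other than wild type replicate 2 ended that call.

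The other 3 genes of this group did not pass. Tyms, which makes thymidylate, averaged 6.03 ± 0.07 in sanroque cells and 5.66 ± 0.15 in wild-type cells (log2 intensity, SD, n = 3 each), without overlap (log2 fold 0.38, limma adjusted p = 0.0593). Tk1, the thymidine kinase of dividing cells, had a log2 fold of 0.27, with sanroque replicate 1 highest at 7.33 and overlap between the groups. A further, dimmer Tk1 probe set gave a log2 fold of 0.61 without overlap. It read 6.82, 6.00 and 5.93 in the sanroque arrays, replicate 1 highest, against 5.59, 5.65 and 5.68 in the wild-type arrays (log2 intensity). Which of the 2 probe sets reads the Tk1 gene at its own place in the genome was not checked. Dut, the enzyme that removes dUTP, had a log2 fold of -0.10.

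All 3 of the E2F factors rose. E2f2, an activator of S phase genes, read 6.84, 7.06 and 6.44 in the sanroque arrays, against 5.86, 5.70 and 5.95 in the wild-type arrays (log2 intensity). The 3 sanroque values were all higher but spread over more than the 3 wild-type values. The rise was 1.93-fold (log2 fold 0.95 ± 0.16 SE, limma adjusted p = 0.0200). E2f8, an atypical family member that represses E2F targets late in S phase, read 5.95, 5.67 and 5.56 in the sanroque arrays, against 5.03, 4.70 and 4.99 in the wild-type arrays (log2 intensity), and rose 1.76-fold (limma adjusted p = 0.0181). E2f1, the best known activator, read 5.77, 5.71 and 5.85 in the sanroque arrays, against 5.43, 5.35 and 5.50 in the wild-type arrays (log2 intensity), and rose 1.27-fold (limma adjusted p = 0.0414). The groups did not overlap for either gene. Of single arrays left out, E2f8 kept its call in 4 of 6 cases, E2f2 in 2 and E2f1 in 1, and without both arrays that stood apart the log2 folds were 0.60, 0.85 and 0.31, none of them past the threshold.

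Of the 10 listed genes of the replicative helicase and its activators, 3 rose, and all 10 had a log2 fold above 0 (median 0.32). Mcm2, a helicase subunit that also binds histones, read 8.80, 8.79 and 9.22 in the sanroque arrays, against 8.30, 8.42 and 8.32 in the wild-type arrays (log2 intensity), and rose 1.51-fold (limma adjusted p = 0.0404). Mcm4, a subunit of the helicase core, read 8.91, 9.11 and 9.24 in the sanroque arrays, against 8.53, 8.71 and 8.67 in the wild-type arrays (log2 intensity), and rose 1.37-fold (limma adjusted p = 0.0492). Mcm10, a scaffold that helps the loaded helicase to fire, read 6.17, 5.98 and 5.98 in the sanroque arrays, against 5.50, 5.45 and 5.70 in the wild-type arrays (log2 intensity), and rose 1.41-fold (limma adjusted p = 0.0307). All 3 separated the groups without overlap. Of 6 fits with a single array left out, Mcm10 kept its call in 2, and Mcm2 and Mcm4 in 1 each.

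The remaining helicase subunits did not move evenly. Mcm5 (log2 fold 0.34) and Cdc45 (0.31), which holds the helicase in its active form, separated the groups, with sanroque above wild type, but did not pass (limma adjusted p = 0.0856 and 0.0795). Mcm3 (0.39) and Mcm6 (0.31) had folds of the same order with overlapping groups. The 3 sanroque values of Mcm3 were 8.02, 8.47 and 8.94, a range wider than that fold. Mcm7, another subunit of the same ring, averaged 8.86 ± 0.24 in sanroque cells and 8.80 ± 0.10 in wild-type cells (log2 intensity, SD, n = 3 each), a log2 fold of 0.05 ± 0.13 SE. The GINS subunits Gins1 and Gins2 had log2 folds of 0.12 and 0.09. The GINS subunits outside the listed genes, Gins3 and Gins4, had log2 folds of 0.14 and -0.47. Gins4 was lower in each sanroque array but did not pass (limma adjusted p = 0.0505), while the groups overlapped for Gins3.

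Origin licensing was the role with 0 called genes of 4 by limma, with 1 higher and 1 lower at an unadjusted p below 0.05. Cdc6, which helps to load the helicase, had the smallest p among them. It read 5.84, 5.93 and 5.81 in the sanroque arrays, against 5.71, 5.53 and 5.56 in the wild-type arrays (log2 intensity). The groups did not overlap, but the log2 fold of 0.26 ± 0.08 SE did not pass (limma adjusted p = 0.105). Cdt1, the other loading factor, had a log2 fold of 0.12, with 8.15 to 8.87 in the sanroque arrays around 8.34 to 8.39 in the wild-type arrays. Orc6, a subunit of the origin recognition complex, was lower in each sanroque array (log2 fold -0.16, limma adjusted p = 0.228). Subunits outside the listed genes, Orc2, Orc3, Orc4 and Orc5, had log2 folds of -0.14, -0.10, -0.38 and -0.27 and did not pass. Of these, Orc3 was lower in each sanroque array and the others overlapped. Orc1, the subunit that varies with the cell cycle, read 4.04 to 4.30 in sanroque and 4.08 to 4.13 in wild-type arrays, below the 25th percentile of gene means (4.49).

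The polymerase subunits did not move alike. Pola1, the catalytic subunit of polymerase alpha, read 6.83, 6.96 and 7.28 in the sanroque arrays, against 6.28, 6.45 and 6.52 in the wild-type arrays (log2 intensity). It rose 1.52-fold without overlap (limma adjusted p = 0.0396), and kept its call in 2 of 6 fits with a single array left out. The catalytic subunits of polymerases epsilon and delta, Pole and Pold1, had log2 folds of 0.51 and 0.14 and did not pass, though each sanroque array was above each wild-type array. The accessory subunits among the 43 had lower folds: -0.04 for Pola2, -0.37 for Pole2 and -0.31 for Pold2, none of them called. Accessory subunits outside the 43 varied, with log2 folds of 0.20 for Pold3, above that of Pold1, -0.06 for Pold4, -0.04 for Pole3 and -0.51 for Pole4. Prim1, the catalytic subunit of primase, read 7.38, 7.22 and 7.63 in the sanroque arrays, against 8.26, 8.27 and 7.70 in the wild-type arrays (log2 intensity). All 3 sanroque values were lower, and wild type replicate 3 lay close to them. Its log2 fold of -0.66 ± 0.18 SE was the lowest of the 43 and did not pass (limma adjusted p = 0.0793). Its partner Prim2 had a log2 fold of 0.12. This grouping of the subunits was made after their values were seen, so it has no test.

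In the clamp, loader and strand joining group, 1 of 9 genes rose. Lig1, the ligase that seals Okazaki fragments, read 7.54, 7.78 and 7.81 in the sanroque arrays, against 7.33, 7.02 and 7.03 in the wild-type arrays (log2 intensity), and rose by 0.59 on the log2 scale without overlap (limma adjusted p = 0.0328). Its call held in 1 of 6 fits with a single array left out. Pcna, the sliding clamp, pointed the other way. It read 10.76, 10.88 and 10.96 in the sanroque arrays, against 11.31, 11.17 and 10.99 in the wild-type arrays (log2 intensity), with a log2 fold of -0.29 ± 0.10 SE (limma adjusted p = 0.168). A second Pcna probe set read nearly the same values, with a log2 fold of -0.30. Rfc4, a subunit of the clamp loader, was lower in each sanroque array (log2 fold -0.34, limma adjusted p = 0.132), while Rfc2, Rfc3 and Rfc5 had log2 folds of -0.07, -0.04 and 0.04. The single-strand binding genes Rpa1 and Rpa2 had log2 folds of -0.11 and 0.24, and Fen1, which trims Okazaki fragments, 0.21.

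Of the chromatin assembly and checkpoint genes, 2 of 4 rose. Clspn encodes claspin, which couples stalled forks to the checkpoint kinase Chek1. It read 5.36, 5.19 and 4.99 in the sanroque arrays, against 4.55, 4.55 and 4.65 in the wild-type arrays (log2 intensity), and rose 1.51-fold without overlap (limma adjusted p = 0.0225). Its call held in 3 of 6 fits with a single array left out. Chaf1a, the large subunit of the chromatin assembly factor that places histones behind the fork, read 6.62, 6.25 and 6.34 in the sanroque arrays, against 5.90, 5.85 and 5.99 in the wild-type arrays (log2 intensity). It rose 1.40-fold without overlap (limma adjusted p = 0.0461), and leaving out any single array ended the call. Its partner Chaf1b had a log2 fold of 0.11. Brca1, which protects and repairs forks, had a log2 fold of 0.27 without overlap and did not pass (limma adjusted p = 0.120).

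**Figure D2:**
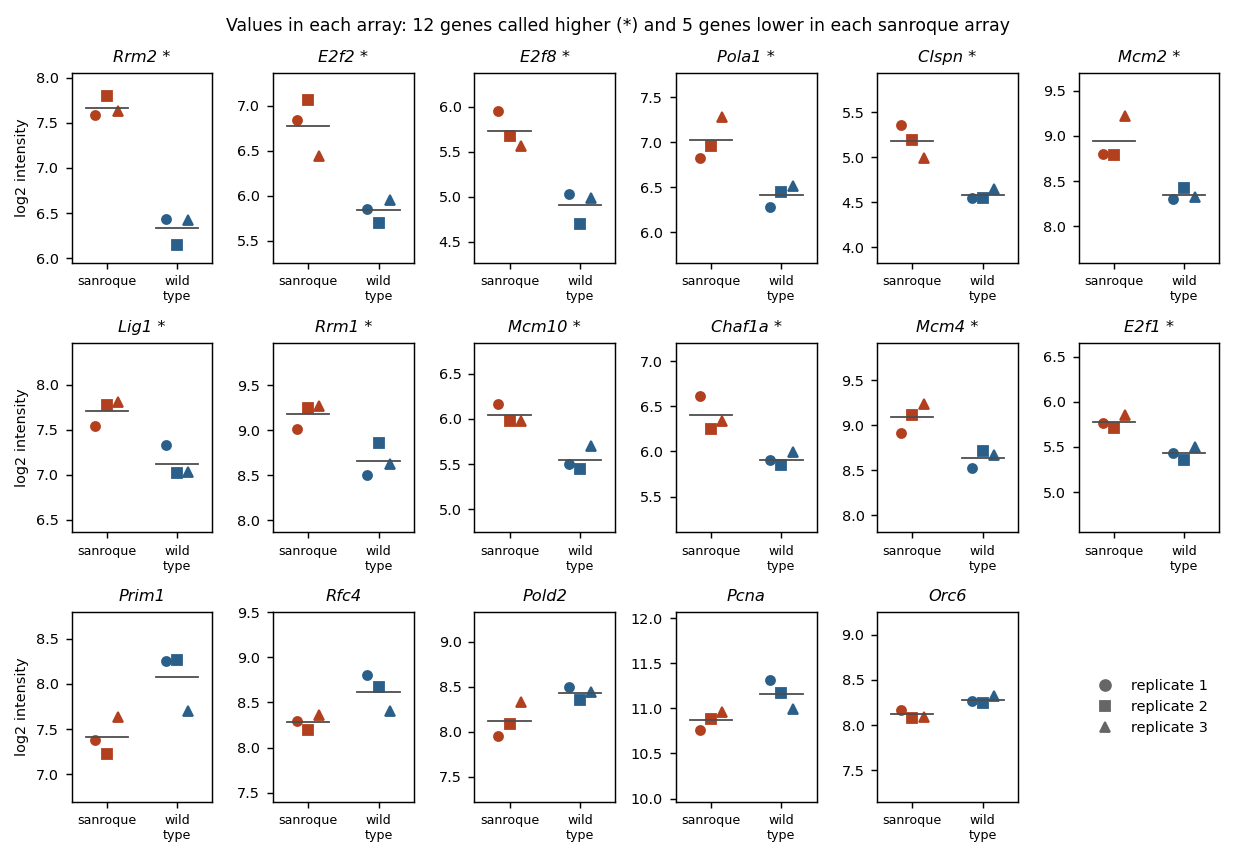
Log2 intensity (y axis, each panel spanning the same range) in each array for the 12 genes that rose (*) and the 5 genes whose sanroque arrays were all lower. Points are arrays, with sanroque left of wild type and the symbol giving the replicate, and bars are group means. The gap is widest for Rrm2 (sanroque mean 7.67, wild-type mean 6.33), and in Prim1, Rfc4 and Pcna wild type replicate 3 lies close to the sanroque arrays.

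The direction within the list was thus not uniform. In all, 32 genes had a log2 fold above 0 and 11 below, against 7673 above and 12265 below among all genes. The 5 with all sanroque arrays lower were Prim1, Rfc4, Pold2, Pcna and Orc6. They are 11.6% of the list, a share no larger than the 13.2% of all genes. Across the 43 genes the log2 fold had a Spearman rho of -0.36 with the mean level and of 0.33 with genomic span. Over all genes the rho with genomic span was 0.15. These are descriptions across genes of 6 shared arrays. Genes that rose had a median genomic span of 22.9 kb, against 13.8 kb for the 11 with a fold below 0 (RefSeq, GRCm38.p6), with ranges of 5.9 to 327.6 kb and 3.9 to 48.2 kb. Between the sanroque arrays, replicate 3 was highest in 23 of the 43 genes, replicate 1 in 11 and replicate 2 in 9.

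**Figure D3:**
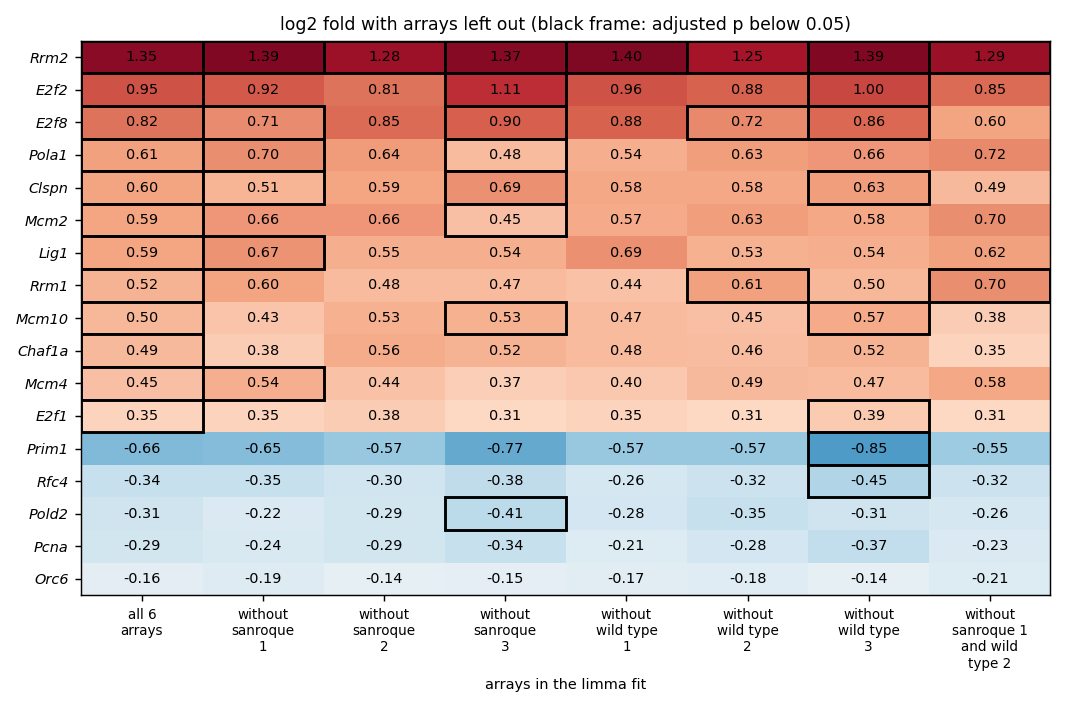
Log2 fold (numbers and colour) of the 12 genes that rose and the 5 genes lower in each sanroque array, with all 6 arrays and with arrays left out (columns). Black frames mark an adjusted p below 0.05: Rrm2 is framed in every column, and none of the 17 genes changes sign.

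Promoter sequence was then set beside these values. RefSeq promoter windows (GRCm38.p6) were found for 37 of the 43 genes, and the 250 bases before each start were searched on both strands for 3 kinds of motif. The first was an E2F site (TTTCCCGC, TTTGGCGC, TTTCGCGC or TTTGCCGC, which can overlap each other on opposite strands). The second was the CCAAT box (CCAAT), and the third the cell cycle homology region or CHR (TTTGAA), a repressor site of genes used late in the cycle. An E2F site was found in 7 of 37 replication genes, or 18.9%, against 2.16% of the 27025 genes in the promoter table and 2.88% of those tested here. The count rests on the window, since it was 3 with the 100 bases before the start and 14 with the whole 300-base window. Of all genes, 0.981% and 2.60% held one there. The 300-base window runs past the start, so the matches it adds are not within the 250 bases before it. A CCAAT box was found in 23, or 62.2%, against 37.5% of all genes. A CHR was found in 6, or 16.2%, against 18.3% of all genes. A match is a run of letters in this window and no evidence of binding.

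The 7 replication genes with an E2F match are shown with the match in capitals and up to 15 bases on either side, 5′ to 3′ on the strand of the gene. Among them Pola1 rose and the other 6 were not called, although Cdc6 and Mcm5 were higher in each sanroque array.
Pola1, chrX:93632271-93632308, minus strand: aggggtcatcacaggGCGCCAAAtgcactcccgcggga
Orc1, chr4:108579412-108579449, plus strand: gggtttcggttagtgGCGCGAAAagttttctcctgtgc
Cdc6, chr11:98907998-98908035, plus strand: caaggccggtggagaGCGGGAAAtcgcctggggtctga
Mcm5, chr8:75109341-75109382, plus strand: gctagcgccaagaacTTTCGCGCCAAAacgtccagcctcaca
Mcm6, chr1:128359730-128359830, minus strand: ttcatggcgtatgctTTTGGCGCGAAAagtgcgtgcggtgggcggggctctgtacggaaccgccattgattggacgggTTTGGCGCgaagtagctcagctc
Mcm7, chr5:138172026-138172063, minus strand: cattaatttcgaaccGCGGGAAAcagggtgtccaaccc
Rfc3, chr5:151651209-151651233, minus strand: agtgacgtcgcacgcTTTCGCGCtc

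Among the 11 genes that rose and have a promoter window, 1 held an E2F match, 9 held a CCAAT box and 3 held a CHR. Of the 26 that did not pass, 6 held an E2F match, 14 a CCAAT box and 3 a CHR. Of the 5 genes with lower values in each sanroque array, 0 held an E2F match and 4 held a CCAAT box. Among the genes that rose, E2f1 held no match, but its window can be read as protein-coding sequence of E2f1 itself. The bases before that gene may thus not have been searched. The 150 bases before the start are printed for 4 genes that rose, Rrm2, which changed most, E2f8, Clspn and Mcm10, with CCAAT boxes and CHR matches on either strand in capitals.
Rrm2, chr12:24708104-24708253, plus strand: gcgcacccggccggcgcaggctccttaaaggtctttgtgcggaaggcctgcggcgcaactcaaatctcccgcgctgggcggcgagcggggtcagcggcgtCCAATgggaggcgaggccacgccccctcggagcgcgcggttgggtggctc
E2f8, chr7:48881597-48881746, minus strand: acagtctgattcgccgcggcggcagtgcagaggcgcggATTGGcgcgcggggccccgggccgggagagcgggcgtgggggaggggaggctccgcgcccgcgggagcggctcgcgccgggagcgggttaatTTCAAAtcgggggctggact
Clspn, chr4:126556830-126556979, plus strand: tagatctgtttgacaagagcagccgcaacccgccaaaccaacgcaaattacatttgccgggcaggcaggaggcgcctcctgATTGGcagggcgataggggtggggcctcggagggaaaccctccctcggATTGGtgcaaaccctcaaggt
Mcm10, chr2:5012792-5012941, minus strand: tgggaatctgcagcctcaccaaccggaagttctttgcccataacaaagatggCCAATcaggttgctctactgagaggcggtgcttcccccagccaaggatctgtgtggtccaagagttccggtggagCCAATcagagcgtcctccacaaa
The Rrm2 stretch holds 1 CCAAT box, 50 to 46 bases before the start. Clspn and Mcm10 hold 2 each, and E2f8 holds a CCAAT box and, 20 to 15 bases before the start, a CHR.

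Other genes of the pathway moved less evenly. Of 46 measured replication genes outside the 43, 3 rose, 3 fell and 40 did not pass, with a median log2 fold of -0.01. Each count of 3 is 6.52%, beside 3.26% of all genes called higher and 2.51% called lower. Uhrf1, which brings the maintenance DNA methyltransferase to new strands, rose by 0.92, Dna2, a nuclease that trims long flaps, by 0.79 and Ticrr, the treslin gene needed for helicase activation, by 0.41 on the log2 scale (limma adjusted p = 0.0133, 0.00565 and 0.0459). Asf1a, a histone chaperone, fell by 0.54, Pole4, an accessory subunit of polymerase epsilon, by 0.51 and Rnaseh2a, which removes RNA from DNA, by 0.34 on the log2 scale (limma adjusted p = 0.0331, 0.0471 and 0.0340). Without both arrays that stood apart 0 of these genes passed in either direction by limma, with 10 higher and 4 lower at an unadjusted p below 0.05. Gmnn, the geminin gene whose protein blocks licensing by Cdt1, had a log2 fold of 0.04.

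Of 21 other genes of E2F control, 2 rose and 2 fell, or 9.52% each, beside 3.26% and 2.51% of all genes. Ccna2, the cyclin of S and G2 phase and an E2F target, read 7.44, 7.31 and 6.85 in the sanroque arrays, against 4.87, 4.97 and 4.99 in the wild-type arrays (log2 intensity). It rose by 2.26 ± 0.15 SE on the log2 scale (limma adjusted p = 0.00169). Tfdp1, the DNA-binding partner of E2F proteins, rose by 0.71 (limma adjusted p = 0.0209). E2f5, a repressive family member, fell by 0.38 and Lin37, a subunit of the repressor complex of resting cells, by 0.41 on the log2 scale (limma adjusted p = 0.0478 and 0.0432). E2f7, the closest relative of E2f8, had a log2 fold of 0.19 and E2f3 of 0.41, neither past the threshold.

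Genes of mitosis, the nearest other set of cell cycle genes, showed larger folds on the same arrays. Of 29 measured, 18 rose and 0 fell by limma (28 and 0 at an unadjusted p below 0.05), with a median log2 fold of 0.51, against 12 of 43 and 0.24 for the replication genes. The 18 are 62.1%, beside 3.26% of all genes called higher. Mki67, a marker of cycling cells, rose by 2.62, Top2a, which untangles DNA, by 2.31, and Ccnb2, a mitotic cyclin, by 1.53 on the log2 scale (limma adjusted p = 0.000999, 0.00104 and 0.00290). Kif11, a spindle motor, rose by 1.46, Plk1, a mitotic kinase, by 1.29 and Bub1b, a spindle checkpoint kinase, by 1.15 on the log2 scale (limma adjusted p = 0.0126, 0.00221 and 0.00221). The difference between the lists was not tested. Leaving out single arrays left 10 to 15 mitosis genes higher, and leaving out both arrays that stood apart left 11.

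**Figure D4:**
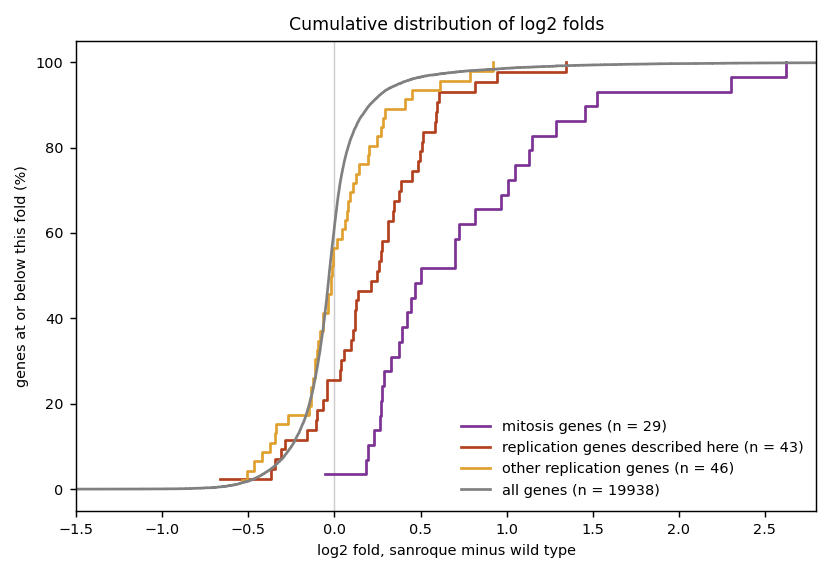
Cumulative share of genes (y axis, percent) by log2 fold, sanroque minus wild type (x axis), for 29 mitosis genes, the 43 replication genes, 46 other replication genes and all 19938 genes. The medians are 0.51, 0.24, -0.01 and -0.03, and the curve of the replication genes meets that of all genes below 0 and lies to its right above 0.

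Genes listed as markers of other cell types moved on the same arrays. Some of them, such as Eomes, Ctla4 and Ikzf2, can also be expressed by CD8 T cells. Of 12 measured B cell markers 8 rose and 0 fell, with a summed intensity of 8770 to 10760 in the sanroque arrays, against 2303 to 5777 in the wild-type arrays. Of 16 myeloid markers 13 rose and 0 fell, with sums of 10942 to 15400 in sanroque, against 3654 to 4618 in wild-type arrays. Of 6 plasma cell markers 4 rose, with sums of 1658 to 2248 in sanroque, against 541 to 840 in wild-type arrays. Of 5 germinal centre B cell markers 0 passed, with sums of 889 to 1156 in sanroque, against 832 to 850 in wild-type arrays, and 0 of 5 erythroid markers passed, with sums of 642 to 719 in sanroque, against 542 to 631 in wild-type arrays. At an unadjusted limma p below 0.05, 3 and 2 of these were higher. Of the germinal centre markers, Mybl1, Gcsam and Bcl6 were higher in every sanroque array (log2 folds 1.31, 1.03 and 0.60, limma adjusted p = 0.0845, 0.108 and 0.0595). S1pr2 and Fas overlapped (log2 folds 0.18 and -0.13). Of 6 CD4 T cell and 6 NK cell markers 3 rose in each, with sums of 723 to 1082 and 793 to 1163 in sanroque, against 393 to 439 and 399 to 481 in wild-type arrays. The CD4 T cell genes that rose were Ctla4, Ikzf2 and Zbtb7b, while Cd4, Foxp3 and Cd40lg did not pass (log2 folds 0.95, 0.38 and 0.27). The NK cell genes that rose were Eomes, the brightest of the 6, Fcgr3 and Klre1. Klrb1c, Klra8 and Ncr1 did not pass (log2 folds 0.94, 0.21 and -0.12). Which cells these transcripts came from was not tested. Of 7 CD8 T cell markers Cd3d fell by 0.52 on the log2 scale, and the sums were 36838 to 38344 in sanroque, against 40506 to 41853 in wild-type arrays. The scale has no true 0, so no marker was absent. Of the erythroid markers, Slc4a1 and Gata1 were higher in every sanroque array (log2 folds 0.63 and 0.29, limma adjusted p = 0.132 and 0.0765), while Alas2, Klf1 and Tfrc overlapped (log2 folds 0.25, 0.22 and 0.04).

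Wild type replicate 2 had a B cell sum of 5777, against 2696 and 2303 in wild type replicates 1 and 3. Among the wild-type arrays, it was the highest in 16 of the 43 replication genes and the lowest in 16. The part of other cells in the sanroque values was not tested. In bulk samples, more cells in S phase and more RNA per cell cannot be told apart, and neither can cycling T cells and cycling cells of another type.

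**Figure D5:**
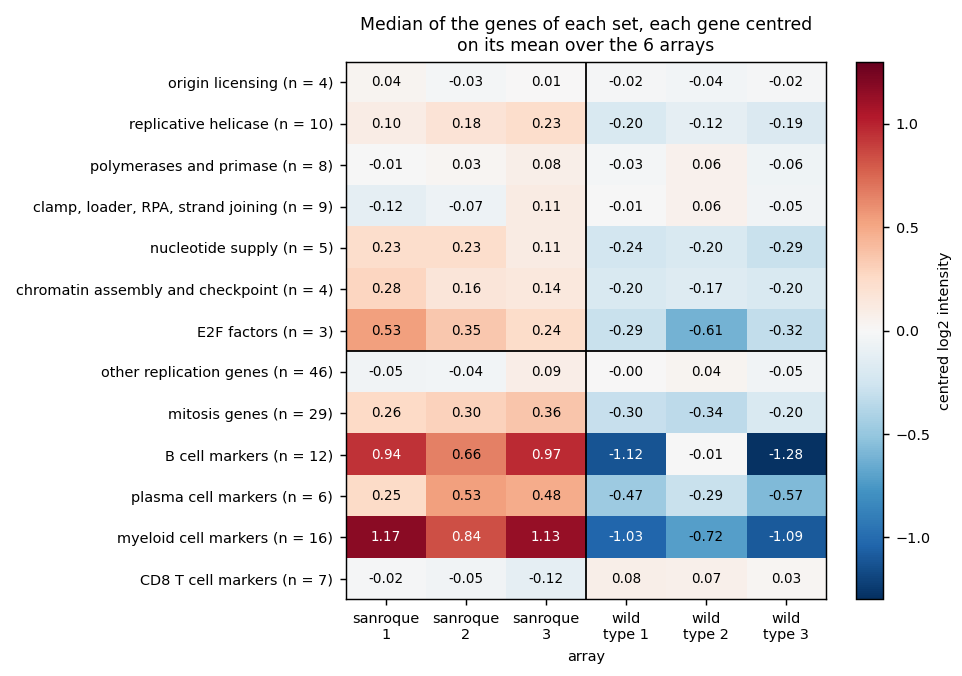
Median over the genes of each set of log2 intensity centred on each gene's mean over the 6 arrays (numbers and colour), with sanroque arrays left of wild-type arrays (columns) and the replication genes split by role above the line. The E2F factors read 0.24 to 0.53 in the sanroque arrays and -0.61 to -0.29 in the wild-type arrays, and the B cell markers read 0.66 to 0.97 in the sanroque arrays and -1.28 to -0.01 in the wild-type arrays.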

How the data were processed

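RNA levels came from 6 Affymetrix arrays, 3 sanroque and 3 wild type. The deposited values are 1 linear intensity per probe set and array (9.56 to 31996), from cRNA carrying biotin, per the labels' protocols. Per the submitters' processing notes, Partek was used, without a stated step. How the authors corrected background, summarized probes and normalized arrays is not given in the sources used here. Array medians were 53.6 to 56.9 and the largest gap between array quantiles was 0.14 on the log2 scale, so the deposited values were taken to log2 as they stand. Precision is limited by having 6 arrays.

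Of 35399 probe sets, 21789 had exactly 1 symbol in the platform annotation, 1621 several, and 11989 were not listed. Each gene was read from its brightest such probe set, and symbols were updated through the RefSeq gene table (GRCm38.p6), which matched 19856 of 19938 genes. Genes were compared with limma 3.58.1 in R 4.3.3 (lmFit and eBayes, two-sided, no filter on dim genes) with p-values adjusted over the 19938 genes by Benjamini-Hochberg and a threshold of 0.05. A positive log2 fold means higher in sanroque, and its standard error is that of the moderated fit. The fit was tested on simulated data.

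The genes, lists, named genes and alternatives were chosen with earlier results of these data known. All 43 genes are accounted for, those called have a value in each array, as has the gene with the smallest p in a role with none called, and other lists give up to 6 called genes by fold. Genes of these lists without a probe set of 1 symbol were not analysed here. Samples sharing a replicate number did not deviate together (r = -0.05, -0.16 and -0.36 for numbers 1 to 3), so the numbers were not taken as pairs. Alternatives covered the probe set, dim genes, quantile normalization, the variance model, array weights, a replicate block, arrays left out and the promoter window. Figures used matplotlib 3.10.9.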

Additional observations from a re-analysis of the deposited data

How the results depend on the processing

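Of 12 replication genes called higher, Rrm2 passed in each of its 14 alternatives, and all 12 kept their direction throughout. Taken gene by gene over all alternatives, the 43 genes stayed on their side of the threshold in 501 cases, lost the call in 69 and gained it in 21. The count of genes changed (1151) was 4733 with array weights, 301 with a replicate block, 353 without both arrays that stood apart, and 218 to 1315 with single arrays left out. Calls that were higher made up 56.5% of it, 42.2% with array weights, 55.1% with quantile normalization, and 92.4% without both arrays. The array weights were uneven, with 7.99 for wild type replicate 1 and 0.34 to 1.71 for the other arrays. The wild-type side of that fit thus rests mostly on 1 array, and its larger counts are no added support. Replication genes called higher (12) numbered 19 with array weights, when 10% of all genes were, 2 with the replicate block (Rrm2 and E2f8), when 1.36% were, 2 without both arrays and 1 to 7 with single arrays left out. Those called lower (0) numbered 6, or 14% of the 43 beside 13.7% of all genes, with array weights (Orc6, Prim1, Pole2, Pold2, Pcna and Rfc4). They numbered 1 (Prim1 each time) with the filter at the 25th or 50th percentile or with a trended, robust variance. Of all genes, 3.79%, 6.43% and 2.61% were called lower there. With single arrays left out they numbered 0 to 2, when 0.11% to 3.65% of all genes were called lower. The 2 came without wild type replicate 3, at 4.65% of the 43 beside 2.28% of all genes. Roles with a called gene (6) numbered 1 without both arrays, 2 with the block and 1 to 6 with single arrays left out. The median log2 fold (0.24) was 0.12 with genes below the 50th percentile left out and 0.22 to 0.27 with single arrays left out. Genes lower in each sanroque array (5) numbered 8 without both arrays and 5 to 8 with single arrays left out, when 31.6% and 16.9% to 23.4% of all genes were. Genes higher in each (20) numbered 26 without both arrays and 20 to 25 with single arrays left out, when 17.1% and 10.7% to 15.8% of all genes were.

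Other replication genes called higher and lower (3 and 3) numbered 6 and 9 with array weights, 6 and 5 with quantile normalization, 1 and 0 with the block, 0 and 0 without both arrays, and 2 to 4 and 0 to 4 with single arrays left out. With the 50th percentile filter 1 was higher. Of all genes, 10% and 13.7% were called higher and lower with array weights, and 4.37% and 3.57% with quantile normalization. The shares were 1.36% and 0.15% with the block and 1.64% and 0.135% without both arrays. With single arrays left out they were 0.983% to 2.94% and 0.11% to 3.65%, and with that filter 6% were higher. Other E2F pathway genes (2 and 2) numbered 10 and 4 with array weights, 4 and 1 with quantile normalization, 1 and 0 with the block, and 1 to 2 and 0 with single arrays left out. The mean of probe sets left 1 higher, the robust variance 0 lower and leaving out both arrays 0 lower. Mitosis genes called higher (18) numbered 6 with the 50th percentile filter, 11 with the block, 11 without both arrays and 10 to 15 with single arrays left out. The 50th percentile filter left most mitosis genes untested, among them Kif11 and Bub1b. Promoters with an E2F match (7) numbered 3 in 100 bases and 14 in the 300-base window that runs past the start, and with a CHR (6) 3 in 100 bases. The filters test fewer genes and the left-out fits fewer arrays, and otherwise the cause was not tested. The labels state no pairing, and no sanroque array correlated best with the wild-type array of its own number. With 3 arrays per genotype, values near the low end of the scale, such as those of Orc1 and Gins1, say little about a difference. The wild-type values of Clspn, 4.55 to 4.65, lay about as low as those of Gins1. With the 50th percentile filter, which leaves Clspn, E2f1, E2f8 and Mcm10 untested, 8 replication genes were called higher, when 6% of all genes were.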

Other observations

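Genes of replication stress and S phase entry outside the named genes, given as values with no explanation, lay on the same arrays. Chek1, the checkpoint kinase that claspin serves, read 5.06, 5.11 and 5.69 in the sanroque arrays, against 4.68, 4.66 and 4.69 in the wild-type arrays (log2 intensity), and did not pass (log2 fold 0.61, limma adjusted p = 0.0785). Dnmt1, the maintenance DNA methyltransferase that Uhrf1 recruits, was higher in each sanroque array (log2 fold 0.27, limma adjusted p = 0.0869). The pocket protein genes Rb1, Rbl1 and Rbl2, whose products hold E2F factors in check, had log2 folds of 0.48, 0.37 and 0.46, each with all sanroque arrays above all wild-type arrays, and none passed (limma adjusted p = 0.0584, 0.0848 and 0.104). Ccne1 and Ccne2, the cyclins of S phase entry, had log2 folds of 0.22 and 0.27 and did not pass. Their choice followed a look at the values.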
